A study of Mus musculus with 40 samples.

Results

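The H2 genes are the major histocompatibility complex of the mouse, and they were followed here through polyadenylated RNA of the ventral tegmental area (VTA), a midbrain region that holds dopamine neurons. Every gene whose symbol starts with H2- was taken, which gave 45 of the 55471 genes of the count table. Of these, 42 had a read in some library, and 29 passed the filter on low counts, among 18441 genes tested. The 3 without a read in any library were H2-M10.1, H2-M10.4 and H2-M11. The 45 genes lie on chromosome 17 between bases 33974659 and 37483552 of GRCm38. Adult mice of the strains C57/Bl6 (C57 below) and DBA, male and female, were compared after repeated cross fostering (RCF) or as controls. In RCF a litter is moved daily to another lactating female, from postnatal day 1 until day 4. The 8 groups were C57 control males, C57 RCF males, C57 control females, C57 RCF females, DBA control males, DBA RCF males, DBA control females and DBA RCF females, with 5 libraries each. No transgene or drug is named, the DBA substrain is not given, and nothing says whether mice of one group shared a litter, so that the p-values reflect how far single libraries vary, which may be technical. The tissue was punched from frozen brains, and in such bulk samples fewer cells of a type and less RNA per cell cannot be told apart.

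Class I molecules are formed by a heavy chain and beta-2-microglobulin, and they display peptides from inside the cell to CD8+ T cells. The classical heavy chains are H2-K1 and H2-D1, while the genes of the Q, T and M regions, called non-classical or class I-like, include ligands of natural killer cells and of gamma delta T cells. Class II molecules pair an alpha and a beta chain (H2-Aa with H2-Ab1, H2-Ea with H2-Eb1) on macrophages, dendritic cells and B cells, where the helpers H2-DM and H2-DO govern peptide loading. In brain, class I is carried by endothelial cells, microglia and some neurons, and class II mostly by macrophages at the brain's borders. Inbred strains differ in the version of the complex they carry, called the haplotype. The C57/Bl6 haplotype, b, has a promoter deletion in the H2-Ea gene, and the reference genome is itself from that strain.

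Library totals ran from 16913124 to 28179071 reads, with a median of 23571196. The dopamine neuron marker Th was between 10.7 and 1644 CPM (counts scaled to library size) in 36 libraries and between 0.725 and 13.8 CPM in the other 4. RNA of this marker was thus very unequal between libraries, and how much of the labelled region each punch held was not tested. Those 4 libraries (C57 control male replicates 1 and 5, C57 RCF female replicate 4 and DBA control female replicate 3) had 503 to 1312 CPM of Slc17a7, a marker of cortical glutamatergic neurons, against 2.92 to 97.3 CPM elsewhere. C57 control male replicate 5 also held 26.4% of the DBA level over genes that separate the strains, against 0.579% to 4.15% of the other strain's level in the other 39 libraries. One further library stood apart within the H2 genes: DBA control male replicate 4 had 6 reads of H2-T23 where the other DBA libraries had 84 to 181, no read of H2-Eb1 or H2-DMb2, and 117 reads each of H2-Q10 and H2-M5.

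The strains differed in 20 of the 29 tested H2 genes (69.0%), 10 higher and 10 lower in DBA (edgeR's quasi-likelihood test, Benjamini-Hochberg adjusted p under 0.05 over all genes tested). Over all genes tested the same contrast called 34.2%, with 17.1% higher and 17% lower. At an unadjusted p under 0.05 the counts were 22 of 29 H2 genes and 43.3% of all genes. The median absolute log2 fold change was 0.914 over the H2 genes and 0.161 over all genes. It was also larger over the H2 genes in each RCF comparison within a strain and sex, where edgeR called none (0.298 to 0.452 against 0.134 to 0.167). Many of the tested H2 genes had few reads, and the part of low counts in these sizes was not tested. The signed median of the strain contrast was near 0, at 0.0095 for the H2 genes and 0.0002 for all genes. By role, none of the 2 classical class I genes, 14 of the other 18 tested class I genes (8 higher and 6 lower), 2 of 3 classical class II genes (both lower) and 3 of 5 class II helpers (2 higher, 1 lower) passed. Without the 4 libraries high in Slc17a7, 23 H2 genes were called, 13 higher and 10 lower.

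**Figure D1:**
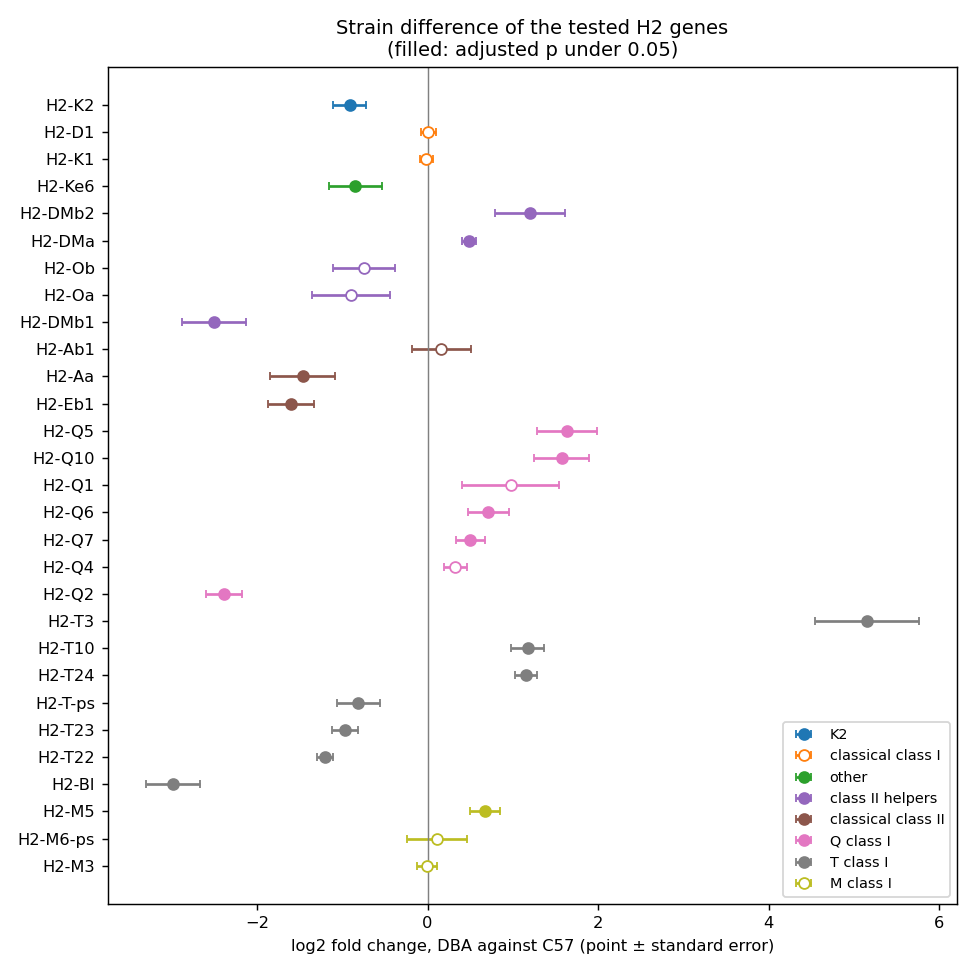
Log2 fold change of DBA against C57 for the 29 tested H2 genes (x axis, with standard error), 1 gene per line, coloured by class and filled where the adjusted p was under 0.05. Filled points lie on both sides of 0, from H2-Bl at -2.98 to H2-T3 at 5.15, while H2-K1 and H2-D1 sit at 0.

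The classical class I genes had the highest levels of the complex and no strain difference that the test could call. H2-K1 (chr17:33996017-34000347, minus strand, protein coding) ran from 19.9 through a median of 27.5 to 40.9 CPM in the 20 C57 libraries and from 17.5 through 28.7 to 35.3 CPM in the 20 DBA libraries. The 2 ranges overlapped almost completely. The fitted difference on the log2 scale was -0.02 (SE 0.0762, 95% interval -0.17 to 0.14, edgeR adjusted p = 0.892). H2-D1 (chr17:35262730-35267499, plus strand, protein coding) ran from 36.0 through 50.1 to 65.6 CPM in C57 and from 26.5 through 52.8 to 70.2 CPM in DBA. The lowest library, at 26.5 CPM, was DBA control female replicate 3, one of the 4 high in Slc17a7. The log2 fold change of H2-D1 was 0.01 (SE 0.0845, interval -0.16 to 0.18, edgeR adjusted p = 0.945).

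Per kilobase of exon, H2-D1 stood at 20.1 ± 2.94 CPM per kb in C57 and 20.2 ± 3.94 in DBA (SD, n = 20), and H2-K1 at 9.62 ± 1.53 and 9.49 ± 1.61. H2-D1 made up 64.6% ± 2.97 of the reads of the pair in C57 and 65.0% ± 2.44 in DBA (SD, n = 20). Across the 8 groups the summed level of the pair had means between 75.1 and 84.4 CPM and SDs between 5.58 and 24.9 CPM (n = 5), so no neighbouring groups in that order were separated beyond their spread. Of the 75-base windows of their exons, 3.1% in H2-K1 and 5.4% in H2-D1 also occur in another gene. The windows around their starts are shown because both hold 3 letter patterns. Among the H2 windows searched, these patterns are otherwise found together in H2-Q6 and H2-Q7. Those genes were called higher in DBA (log2 fold change 0.71 and 0.50), and a relation of the patterns to the strain difference was not tested. Sequences come from RefSeq on GRCm38.p6, 250 bases before to 50 bases after the start, 5′ to 3′ on the gene's strand, at chr17:34000284-34000583 for H2-K1 (minus strand) and chr17:35262844-35263143 for H2-D1 (plus strand). Capitals mark GGGATTCCC (the core of the class I kappaB site), TTTCNNTTC (an interferon response core) and ATTGG (the core of the Y box, also as CCAAT on the other strand).
H2-K1: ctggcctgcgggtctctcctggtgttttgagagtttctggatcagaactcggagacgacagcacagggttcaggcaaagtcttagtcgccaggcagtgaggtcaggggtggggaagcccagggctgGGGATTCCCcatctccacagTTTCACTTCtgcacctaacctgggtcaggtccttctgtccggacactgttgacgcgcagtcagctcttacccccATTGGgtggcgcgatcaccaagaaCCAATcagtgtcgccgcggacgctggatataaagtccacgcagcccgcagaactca
H2-D1: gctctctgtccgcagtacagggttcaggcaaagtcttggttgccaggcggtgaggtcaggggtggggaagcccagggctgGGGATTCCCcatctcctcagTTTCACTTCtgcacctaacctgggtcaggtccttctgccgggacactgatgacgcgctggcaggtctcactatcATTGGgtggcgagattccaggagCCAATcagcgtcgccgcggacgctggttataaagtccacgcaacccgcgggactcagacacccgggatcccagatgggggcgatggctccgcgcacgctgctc
Each motif was searched on both strands in 32851 promoter windows of this length. GGGATTCCC occurs in 0.353% of them and in 5 of the 35 windows of the 32 H2 genes that the table holds (both H2-K1 windows, H2-D1, H2-Q6 and H2-Q7). TTTCNNTTC occurs in 7.52% of all windows and in 9 of the 35. ATTGG occurs in 37.4% and in 31 of the 35. These windows are those of the C57 reference, the DBA sequence was not read here, and a match is a description of letters.

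**Figure D2:**
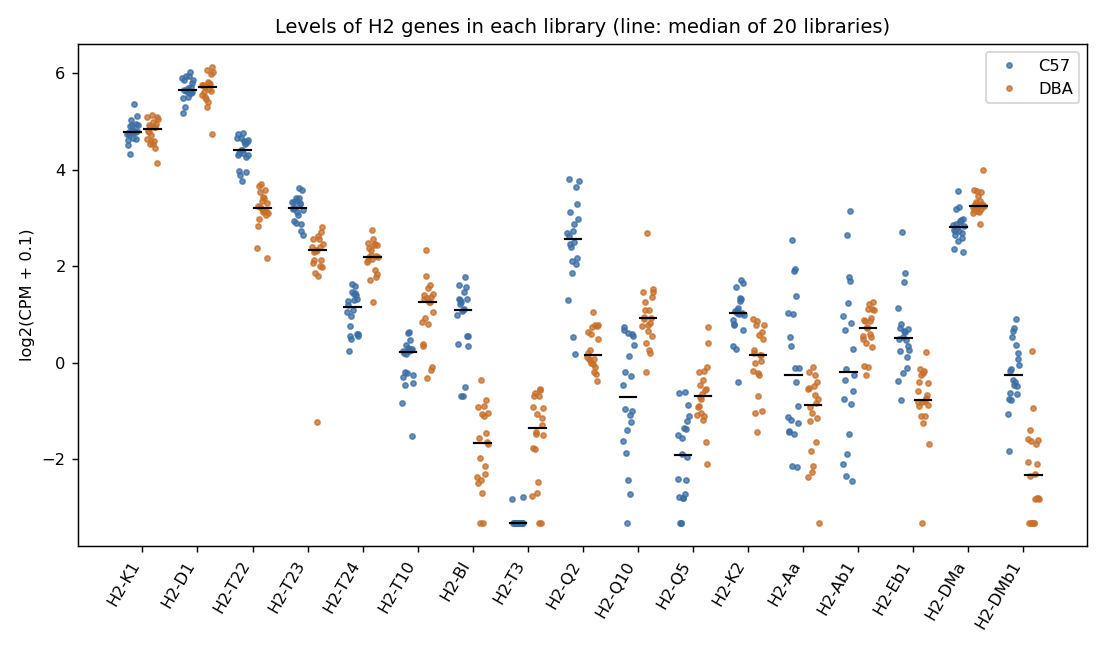
Level of selected H2 genes as log2(CPM + 0.1) (y axis), 1 point per library, C57 beside DBA for each gene, with a line at the median of 20 libraries. H2-K1 and H2-D1 lie level in both strains, while the points of H2-T22 do not overlap between strains.

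The T region genes differed between the strains in both directions. All 7 tested T region genes, with H2-Bl counted among them, were called: 3 higher in DBA (H2-T24, H2-T10, H2-T3) and 4 lower (H2-T22, H2-T23, H2-Bl, H2-T-ps). H2-T22 (chr17:36037128-36042747, minus strand), a heavy chain seen by gamma delta T cells, ran from 13.5 through 21.2 to 27.0 CPM in C57 and from 4.44 through 9.10 to 13 CPM in DBA. Every C57 library was above every DBA library, and H2-T22 was the single tested H2 gene of which this held (3.45% of 29, against 1.79% of all genes tested). Its log2 fold change was -1.2 (SE 0.0984, edgeR adjusted p = 1.42e-12), a mean 2.29 times higher in C57. H2-T23 (chr17:36029773-36032855, minus strand) encodes Qa-1, the ligand of the inhibitory receptor NKG2A on natural killer cells. It ran from 6.20 through 9.19 to 12.3 CPM in C57 and from 0.325 through 4.92 to 6.95 CPM in DBA. Only the highest DBA libraries reached the lowest C57 ones, and the value of 0.325 CPM was DBA control male replicate 4. The log2 fold change of H2-T23 was -0.97 (SE 0.1492, edgeR adjusted p = 2.75e-06), and -0.90 without that library.

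H2-Bl, a class I-like gene of the T region, ran from 0.517 through 2.05 to 3.31 CPM in C57 and from 0 through 0.217 to 0.681 CPM in DBA. In 17 of 20 C57 libraries it was above all DBA libraries. The gene's log2 fold change was -2.98 (SE 0.3149, edgeR adjusted p = 9.41e-10). The pseudogene H2-T-ps was lower in DBA by a log2 fold change of -0.81 (SE 0.2518, edgeR adjusted p = 0.0114).

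H2-T24 (minus strand), next to H2-T23, ran the other way, from 1.09 through 2.12 to 3.01 CPM in C57 and from 2.29 through 4.51 to 6.66 CPM in DBA. In 19 of 20 DBA libraries it was above all C57 libraries. On the log2 scale H2-T24 differed by 1.16 (SE 0.1254, edgeR adjusted p = 1.8e-09). H2-T10, listed as a polymorphic pseudogene and closely related to H2-T22, ran from 0.248 through 1.06 to 1.45 CPM in C57 and from 0.704 through 2.30 to 4.98 CPM in DBA. The ranges overlapped at their edges, and the log2 fold change was 1.18 (SE 0.1917, edgeR adjusted p = 7.05e-06). Since 16% of the 75-base windows of H2-T10 and 18.5% of those of H2-T22 occur in another gene, mostly in each other, their reads could be split or dropped by the counting. H2-T10 took 4.36% ± 1.44 of the reads of this pair in C57 (range 1.57% to 7.74%) and 18.4% ± 5.26 in DBA (7.26% to 27.8%). The summed T region level was lower in DBA, at a fitted log2 fold change of -0.74 (SE 0.0764), given as a description. In the annotation H2-T22, H2-T23 and H2-T24 are overlapped by A930015D03Rik on the opposite strand and H2-T10 and H2-T-ps by Gm7030 on the same strand, and the strand setting of the counting is not given in the sources used here.

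H2-T3, which encodes the TL antigen of intestine and thymus, was almost confined to the DBA libraries. It had 2 reads in all C57 libraries together, 1 each in 2 libraries, and 147 reads in DBA, spread over 18 of 20 libraries with at most 17 in one. The ratio scaled by library size was 72.5, with a 95% counting interval from 19.7 to 605, which covers counting error only. The edgeR adjusted p was 8.79e-08, and none of its 75-base windows occurs in another gene.

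Of the 7 tested Q region genes, 4 were called higher in DBA and 1, H2-Q2, lower. H2-Q2 (chr17:35342242-35346762, plus strand), a class I-like gene, ran from 1.04 through 5.84 to 14.0 CPM in C57 and from 0.666 through 1.02 to 1.99 CPM in DBA. In 18 of 20 C57 libraries it was above all DBA libraries. The 2 exceptions (C57 control male replicate 5 at 1.35 CPM and C57 RCF female replicate 4 at 1.04 CPM) belong to the 4 high in Slc17a7. The first of them also held signal of the other strain. C57 control male replicate 1, likewise high in Slc17a7, was at 5.43 CPM. The log2 fold change of H2-Q2 was -2.39 (SE 0.2105, edgeR adjusted p = 1.1e-11), a mean 5.55 times higher in C57. H2-Q10, a secreted class I chain known from liver, ran from 0 through 0.525 to 1.58 CPM in C57 and from 0.773 through 1.80 to 6.33 CPM in DBA. The ranges overlapped, and the top value was DBA control male replicate 4. The log2 fold change of H2-Q10 was 1.58 (SE 0.322, edgeR adjusted p = 0.000203), and 1.38 without that library. H2-Q10 took 0% to 51.6% of the reads of H2-Q10 plus H2-Q2 in single C57 libraries and 42.7% to 80.1% in DBA libraries. The 51.6% was C57 control male replicate 5 (33 reads of H2-Q10 and 31 of H2-Q2), the library with signal of the other strain. All other C57 libraries had a smaller share than any DBA library. H2-Q5 (log2 fold change 1.63) and 2 genes of the Qa-2 antigen group, H2-Q6 (0.71) and H2-Q7 (0.50), were higher in DBA with edgeR adjusted p of 0.000352, 0.0207 and 0.0208. Between 17% and 21.2% of the windows of these 3 genes occur elsewhere, so the counting could split their reads. H2-Q4 (0.33, edgeR adjusted p = 0.0535) and H2-Q1 (0.98, adjusted p = 0.19) did not pass, and the summed Q level differed by -0.07 (SE 0.124).

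H2-K2, a transcribed pseudogene beside H2-K1, ran from 0.654 through 1.95 to 3.19 CPM in C57 and from 0.271 through 1.02 to 1.78 CPM in DBA. In 13 of 20 C57 libraries it was above all DBA libraries, and its log2 fold change was -0.91 (SE 0.1948, edgeR adjusted p = 0.000343). Of the 14 M region genes, 3 could be tested. H2-M3, which presents formylated peptides, stood at 3.01 CPM in C57 and 3 CPM in DBA (log2 fold change -0.01, edgeR adjusted p = 0.969). H2-M5 was higher in DBA (0.67, SE 0.1785, edgeR adjusted p = 0.00339), and 0.56 without DBA control male replicate 4. H2-M6-ps differed by 0.11 (edgeR adjusted p = 0.839). H2-Ke6, a steroid dehydrogenase gene that keeps an H2 name for its place, was lower in DBA (-0.85, SE 0.3113, edgeR adjusted p = 0.0328) and shares 65.5% of its windows with the overlapping Gm20427. Its call was lost in the fit without a filter and in 4 of the 40 fits that each left out 1 library (C57 RCF male 2, C57 control male 3, C57 control female 1 or DBA RCF male 3).

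H2-T22 and H2-Q2 carried the 2 smallest p-values of the complex, and their reference windows are shown beside those of H2-K1 and H2-D1 for comparison (chr17:36042693-36042992, minus strand, and chr17:35342057-35342356, plus strand, RefSeq on GRCm38.p6). Capitals mark ATTGG or CCAAT. Neither window holds an exact match to GGGATTCCC or TTTCNNTTC. The H2-T22 window does hold agtttcactttc, which has a further T compared with TTTCNNTTC, and such variants were not searched. Nothing follows from these letters about the factors that bind there.
H2-T22: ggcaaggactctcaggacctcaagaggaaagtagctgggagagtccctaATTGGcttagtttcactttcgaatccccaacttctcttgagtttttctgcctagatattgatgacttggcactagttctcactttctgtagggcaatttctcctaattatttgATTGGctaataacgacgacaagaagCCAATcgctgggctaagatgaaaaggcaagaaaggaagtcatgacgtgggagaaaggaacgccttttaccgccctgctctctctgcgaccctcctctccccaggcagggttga
H2-Q2: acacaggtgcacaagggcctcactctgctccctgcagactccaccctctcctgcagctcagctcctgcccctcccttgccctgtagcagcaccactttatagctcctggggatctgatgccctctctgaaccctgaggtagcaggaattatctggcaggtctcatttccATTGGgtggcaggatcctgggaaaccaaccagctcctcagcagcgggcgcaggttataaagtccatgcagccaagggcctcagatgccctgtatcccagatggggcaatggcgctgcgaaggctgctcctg

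**Figure D3:**
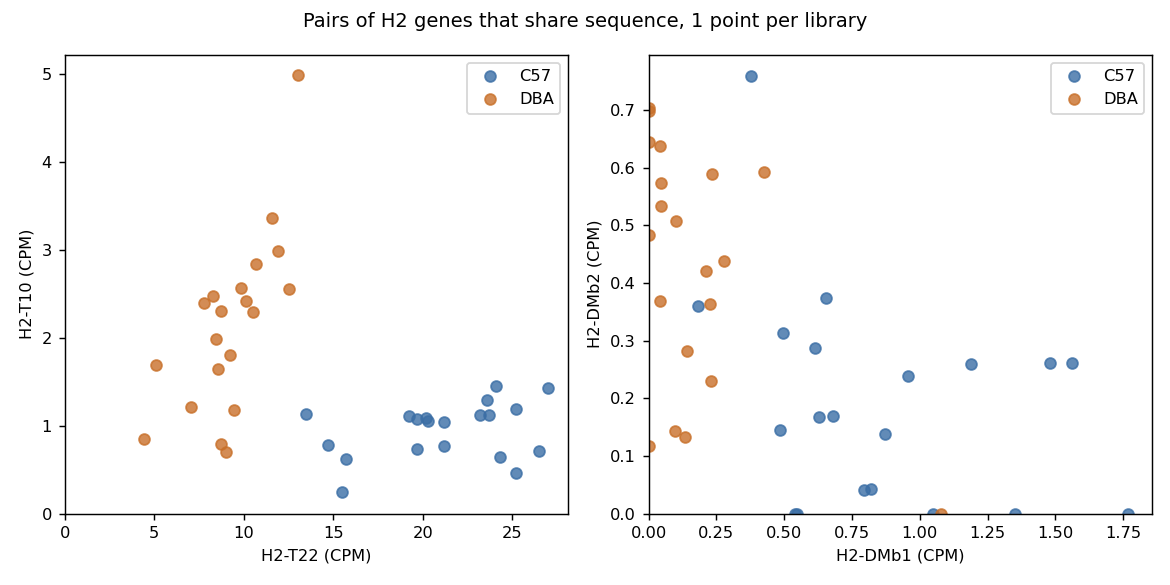
CPM of pairs of H2 genes that share sequence, 1 point per library, coloured by strain. C57 and DBA libraries occupy separate fields for H2-T22 against H2-T10, where H2-T10 takes 4.36% of the pair's reads in C57 and 18.4% in DBA.

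The classical class II genes were low and very uneven among C57 libraries. H2-Aa (chr17:34282744-34287823, minus strand), the alpha chain of I-A, ran from 0.124 through 0.741 to 5.77 CPM in C57 and from 0 through 0.446 to 0.845 CPM in DBA. Most C57 libraries lay within the DBA range or just above it, and a few were several times higher. On the log2 scale H2-Aa differed by -1.47 (SE 0.3838, edgeR adjusted p = 0.00297), a call that limma voom did not make. H2-Ab1 (chr17:34257689-34269419, plus strand), the beta chain that pairs with H2-Aa, ran from 0.0827 through 0.778 to 8.70 CPM in C57 and from 0.742 through 1.56 to 2.31 CPM in DBA. The DBA libraries formed a narrow band, and 19 of 20 were above the C57 median, while both the highest and the lowest values were C57. The log2 fold change of H2-Ab1 was 0.16 (SE 0.3454, interval -0.54 to 0.86, edgeR adjusted p = 0.757), and 0.79 by limma voom. H2-Ab1 took 51.5% ± 15.8 of the reads of the pair in C57 and 78.0% ± 13.4 in DBA (SD, n = 20). The ranges overlapped (22.2% to 91.3% and 50% to 100%), and whether the strain difference was unlike between the 2 chains of I-A was not tested.

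H2-Eb1 (chr17:34305867-34316674, plus strand), the beta chain of I-E, ran from 0.485 through 1.33 to 6.41 CPM in C57 and from 0 through 0.489 to 1.06 CPM in DBA. In 15 of 20 C57 libraries it was above all DBA libraries. The log2 fold change was -1.61 (SE 0.2699, edgeR adjusted p = 1.16e-05). Its alpha chain, listed as H2-Ea-ps (chr17:34341959-34344645, minus strand, a polymorphic pseudogene), did not pass the filter. It had 77 reads in DBA, spread over 17 of 20 libraries with 1 to 13 reads each, and 15 reads in C57. Of those 15 reads, 14 came from C57 control male replicate 5, the library with signal of the other strain, and 1 from C57 control female replicate 5, so 18 C57 libraries had none. The ratio of DBA to C57, scaled by library size, was 5.07 (95% counting interval 2.89 to 9.49) with that library and 72.1 (12.6 to 2883) without it. H2-Eb2 had 167 reads in all libraries together and was not tested. The summed classical class II level had a fitted log2 fold change of -0.64 (SE 0.244).

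The 2 beta chain genes of the class II helper H2-DM differed in opposite directions. H2-DMb1 (chr17:34153072-34160230, plus strand), a beta chain of H2-DM, ran from 0.18 through 0.738 to 1.77 CPM in C57 and from 0 through 0.0987 to 1.08 CPM in DBA. The single high DBA value was DBA control male replicate 4 with 20 reads, while the other 19 had 0 to 10. Its log2 fold change was -2.50 (SE 0.3776, edgeR adjusted p = 1.82e-06), and -2.77 without that library. H2-DMb2, the neighbouring beta chain gene, was higher in DBA (0.191 and 0.423 CPM, log2 fold change 1.2, SE 0.4063, edgeR adjusted p = 0.02). Of their windows 15.8% in H2-DMb1 and 16.1% in H2-DMb2 occur in another gene. H2-DMb2 took 19.8% ± 20.1 of the reads of the pair in C57 and 74.9% ± 25.4 in DBA (SD, n = 20), and the ranges overlapped (0% to 66.7% and 0% to 100%). H2-DMa (chr17:34119541-34139101, plus strand), the alpha chain of both, ran from 4.82 through 6.94 to 11.7 CPM in C57 and from 7.24 through 9.44 to 15.9 CPM in DBA. The ranges overlapped, with 1.40 times the mean in DBA, and the log2 fold change was 0.49 (SE 0.084, edgeR adjusted p = 1.62e-05). H2-DMa is overlapped by CR974462.3 on the same strand and by Brd2, CR974462.4 and Gm20493 on the opposite strand. H2-Oa (-0.90, edgeR adjusted p = 0.127) and H2-Ob (-0.75, adjusted p = 0.11), which form H2-DO, did not pass.

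Class II promoters are known for X and Y boxes, which are read by RFX factors and CIITA. The windows of the 3 class II genes lower in DBA are shown for that reason, at chr17:34287774-34288073 (minus strand), chr17:34305617-34305916 (plus strand) and chr17:34152941-34153240 (plus strand), from RefSeq on GRCm38.p6. The X box was searched as an exact pattern of 14 letters, and variants of it were not searched. At least the windows of H2-Eb1, H2-Eb2, H2-DMb2 and H2-Ob each hold a run that differs from this pattern by 1 letter. A window without an exact match is thus not shown to lack an X box. Capitals mark ATTGG or CCAAT and, in H2-DMb1, a longer run that matches the X box pattern, which was searched on both strands and occurs in 0.0609% of 32851 windows and in 1 of the 35 H2 windows.
H2-Aa: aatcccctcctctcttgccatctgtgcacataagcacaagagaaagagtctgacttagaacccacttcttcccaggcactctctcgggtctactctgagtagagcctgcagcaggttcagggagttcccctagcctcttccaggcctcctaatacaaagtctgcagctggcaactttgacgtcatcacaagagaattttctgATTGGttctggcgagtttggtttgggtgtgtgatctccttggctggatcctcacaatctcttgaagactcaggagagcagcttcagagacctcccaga
H2-Eb1: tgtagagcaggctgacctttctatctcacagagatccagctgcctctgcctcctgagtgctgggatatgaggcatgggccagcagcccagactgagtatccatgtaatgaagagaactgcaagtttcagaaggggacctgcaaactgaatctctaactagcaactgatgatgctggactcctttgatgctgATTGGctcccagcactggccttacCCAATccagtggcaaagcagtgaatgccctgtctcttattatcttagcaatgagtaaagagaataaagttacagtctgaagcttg
H2-DMb1: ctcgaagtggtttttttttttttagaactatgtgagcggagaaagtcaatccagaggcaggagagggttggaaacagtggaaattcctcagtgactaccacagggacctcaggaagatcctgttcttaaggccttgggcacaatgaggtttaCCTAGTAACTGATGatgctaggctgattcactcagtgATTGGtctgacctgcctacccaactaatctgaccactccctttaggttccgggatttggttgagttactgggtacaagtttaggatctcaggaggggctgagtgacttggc

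**Figure D4:**
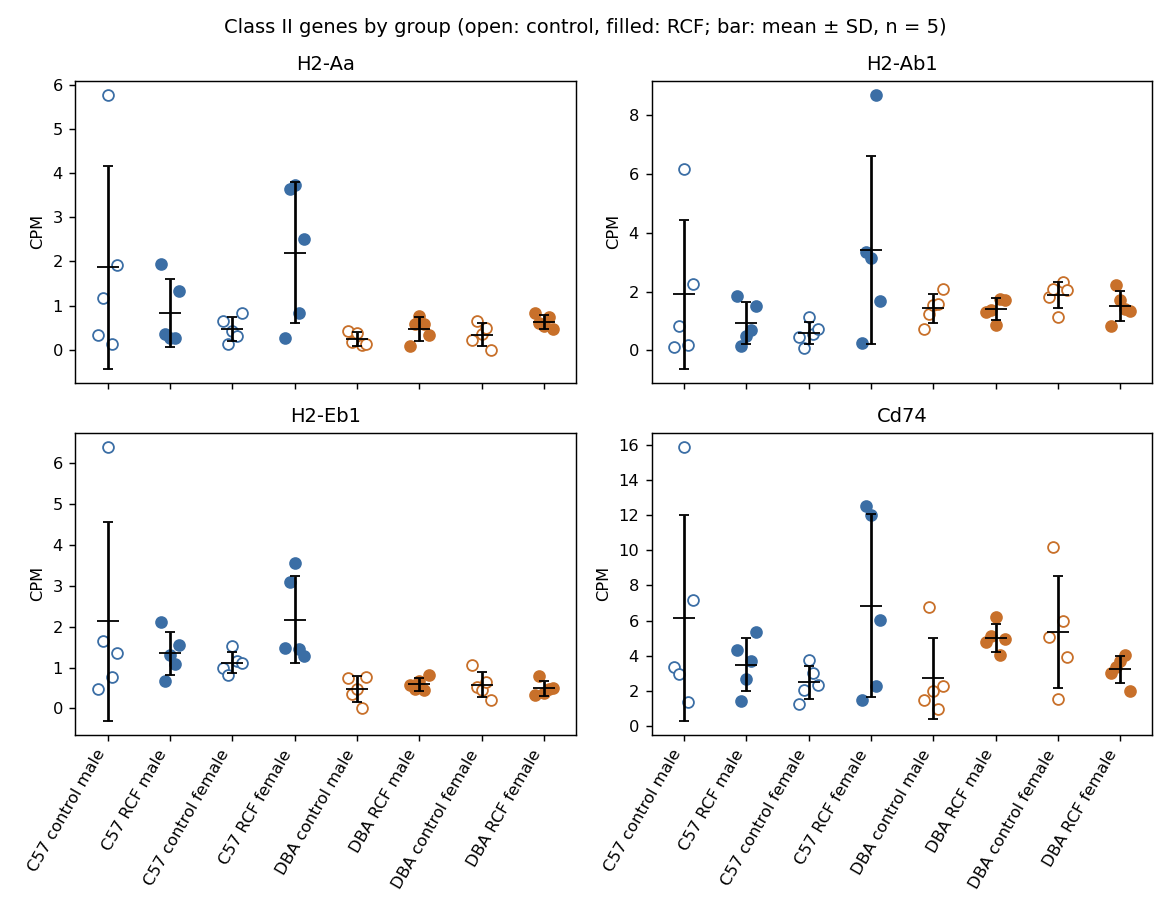
CPM of class II genes in each of the 8 groups, 1 point per library (open for control, filled for RCF), with the mean and SD of 5 libraries. The highest points of H2-Aa, H2-Ab1 and H2-Eb1 are all C57 libraries, among them C57 control male replicate 3 and C57 RCF female replicates 2, 3 and 4.

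Genes with few reads showed further strain differences outside the filter. H2-Q3, an unprocessed pseudogene, had 1 read in C57 and 113 in DBA, over 18 of 20 libraries (ratio 112, counting interval 19.6 to 4443). H2-M2 had 1 read in C57 and 19 in DBA, over 11 libraries (ratio 18.8, interval 2.98 to 779). Of those 19 reads 9 came from DBA control male replicate 4, and without it the ratio was 10.2 (interval 1.46 to 444). In the edgeR fit without a filter the adjusted p was 1.76e-07 for H2-Q3, 0.000496 for H2-Ea-ps and 0.00433 for H2-M2. The M10 genes, H2-M1, H2-M9, H2-Pa and H2-Pb had 0 to 7 reads each over all 40 libraries.

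Summed over all members, the complex reached 152 ± 19.1 CPM in C57 and 136 ± 19.9 CPM in DBA (SD, n = 20). Class I made up 90.7% of H2 reads in C57 and 89.4% in DBA. Within it the classical pair rose from 52.7% ± 2.57 of H2 reads in C57 to 58.4% ± 3.34 in DBA, as the T region share fell from 23.8% ± 3.15 to 15.8% ± 2.09. These are shares of 1 total, given as a description. The 278 other genes annotated between the first and the last H2 gene gave 101 that were tested, of which 44.6% passed (28 higher and 17 lower), with a median absolute log2 fold change of 0.157. Over all genes tested 34.2% passed, with a median absolute log2 fold change of 0.161. How reads of DBA alleles were matched to a reference of the C57 haplotype is not given in the sources used here, and its part in the strain differences was not tested.

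Other genes of antigen presentation also differed between the strains. Of 33 tested genes of this list, 6 were higher and 10 lower in DBA, beside 17.1% higher and 17% lower over all genes tested, and the median log2 fold change was -0.08. B2m, the light chain of every class I molecule, stood between 86.5 and 137 CPM in C57 and between 59.3 and 98.3 CPM in DBA. The ranges overlapped only at their edges, and the log2 fold change was -0.51 (SE 0.0573, edgeR adjusted p = 4.14e-09). Hfe (-1.07) and Fcgrt (-0.47), class I-like proteins of iron uptake and of antibody transport, were lower in DBA, as were the RFX subunit gene Rfxank (-0.28), the peptide transporter gene Tap2 (-0.38) and the immunoproteasome gene Psmb8 (-0.52). Their edgeR adjusted p were 3.57e-08, 7.75e-06, 6e-05, 0.000813 and 0.00305. Higher in DBA were Rfxap (0.22, edgeR adjusted p = 7.26e-05), Psmb10 (0.22, 0.000901), Calr (0.11, 0.00126), Ifi30 (0.28, 0.0296), Rfx5 (0.14, 0.0303) and Cd1d1 (0.53, 0.0438). Cd74, the invariant chain of class II (-0.16, edgeR adjusted p = 0.685), and Tap1 (-0.06, adjusted p = 0.729) did not pass.

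Markers of some cell types also differed between the strains, and over all genes tested 17.1% were higher and 17% lower in DBA. The counts of border macrophage and dopamine neuron markers given here were near that share. Of 15 microglia markers 12 were lower in DBA (median -0.44), and their summed level ran from 322 to 546 CPM in C57 and from 240 to 368 CPM in DBA. Of 13 endothelial markers 11 were lower (median -0.31, 310 to 509 CPM against 254 to 370 CPM). Of 10 meninges markers 7 were lower (median -0.92, 31.5 to 273 CPM against 31.3 to 90.1 CPM), and of 8 border macrophage markers 1 was lower (median -0.23). All 5 erythroid genes were lower in DBA (median -1.53, 19.8 to 85.5 CPM against 4.46 to 22.7 CPM). Of 23 interferon-induced genes 7 were lower and 2 higher (median -0.27), and of 10 dopamine neuron markers 2 were lower (median -1.52). Of 16 markers of dendritic cells and lymphocytes 4 could be tested and 2 were higher in DBA. Cd3e and Cd79a were each at 0.487 CPM or less in every library. The part of cell content in the H2 differences was not tested.

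The strain difference was also measured apart in control and in RCF mice. In controls 16 of the 29 tested H2 genes were called (8 higher and 8 lower; 16% of all genes tested, 7.88% higher and 8.13% lower), and in RCF mice 14 (7 and 7; 23.8% of all genes tested, 11.3% higher and 12.4% lower). The 2 comparisons share no library. Called in both, in the same direction, were 13 genes, which are 81.2% of the control calls and 92.9% of the RCF calls: H2-Bl, H2-DMa, H2-DMb1, H2-Eb1, H2-K2, H2-Q10, H2-Q2, H2-Q5, H2-T10, H2-T22, H2-T23, H2-T24 and H2-T3. H2-Aa (-1.65 in controls and -1.28 in RCF), H2-DMb2 (1.75 and 0.65) and H2-Q7 (0.68 and 0.32) passed in controls alone, and H2-M5 (0.52 and 0.82) in RCF alone. In controls, leaving out 1 library ended the call of H2-Q7 in 14 of 20 fits, of H2-DMb2 in 11, of H2-Aa in 9 and of H2-K2 in 4, and in RCF mice H2-Aa passed under 3 of 8 other settings. These contrasts between calls do not show that the strain effect depended on treatment, which was tested below. The sign was the same in 24 of 29, and the 5 others (H2-K1, H2-Ab1, H2-D1, H2-M6-ps and H2-M3) were called in neither set.

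**Figure D5:**
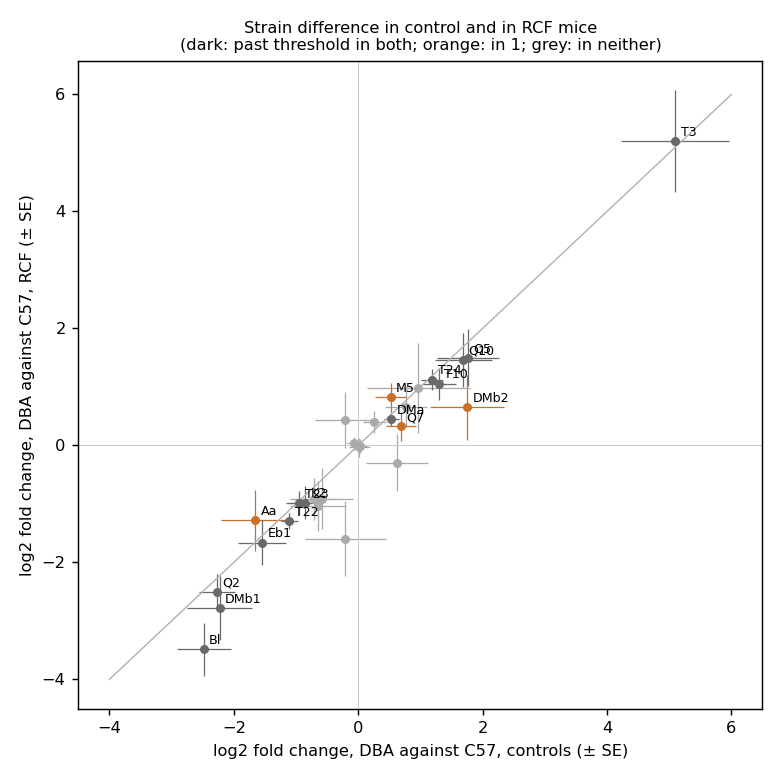
Log2 fold change of DBA against C57 in control mice (x axis) and in RCF mice (y axis), with standard errors, 1 point per tested H2 gene. The 13 genes past the threshold in both sets lie at the lower left and the upper right, from H2-Bl (-2.48 and -3.49) to H2-T3 (5.10 and 5.21).

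RCF called no H2 gene in any of the 4 comparisons the design sets. With edgeR, 0 of 29 passed in C57 males (0.0108% of all genes tested passed), C57 females (0.00542%), DBA males (0.0163%) and DBA females (0.0163%). At an unadjusted p under 0.05 there were 3, 4, 0 and 0 H2 genes, against 7.07%, 12.5%, 6.72% and 12.3% of all genes. limma voom called 0 in each, and DESeq2 called 1, H2-Ab1 in C57 females, and 0 in the other 3. The mean RCF effect over the 4 comparisons also gave 0 of 29 (0.0217% of all genes tested; 0 at an unadjusted p under 0.05, against 6.95% of all genes, 0 by DESeq2 and 0 by limma voom). In the antigen presentation list 0 of 33 passed in each of these comparisons. The median absolute log2 fold change of the H2 genes was 0.408 in C57 males, 0.452 in C57 females, 0.298 in DBA males and 0.335 in DBA females, against 0.139, 0.164, 0.134 and 0.167 over all genes. Many of these H2 genes had few reads, and genes of like level were not compared.

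The smallest p-values of the H2 genes after RCF were in the class II genes of C57 females. H2-Ab1 had 11, 2, 28, 14 and 16 reads in the 5 control females and 6, 80, 67, 168 and 39 reads in the 5 RCF females. All RCF libraries but replicate 1 were above every control. The log2 fold change was 2.52 (SE 0.7311, interval 1.03 to 4.01), with an edgeR adjusted p of 0.211 and a DESeq2 adjusted p of 0.0445. H2-Aa had 16, 3, 11, 8 and 18 reads in control females and 6, 87, 80, 16 and 58 in RCF females. RCF replicates 2, 3 and 5 were above every control and replicate 1 was not, while replicate 4, at 0.828 CPM, was level with the highest control at 0.827 CPM. Its log2 fold change was 2.21 (SE 0.7527, edgeR adjusted p = 0.237).

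The 2 chains parted in C57 RCF female replicate 4, one of the 4 libraries high in Slc17a7, which had 168 reads of H2-Ab1 but 16 of H2-Aa and 2.28 CPM of Cd74. It also held Hoxb5, a hindbrain and spinal cord gene, at 33.8 CPM, against at most 0.167 CPM in the 36 libraries low in Slc17a7. Without it the log2 fold change of H2-Ab1 was 1.82 (edgeR adjusted p = 0.621) and that of H2-Aa 2.41 (adjusted p = 0.598). In the same comparison Cd74 changed by 1.46 (edgeR adjusted p = 0.282), B2m by 0.23 (adjusted p = 0.413) and Tap1 by 0.01 (adjusted p = 0.995). Marker lists of other cells had higher values in the same RCF females, with no tested gene past the threshold in these 3: 15 of 15 microglia markers (median 0.31, summed 373 to 546 CPM against 322 to 417 CPM), 8 of 8 border macrophage markers (median 0.54, 17.1 to 36.5 CPM against 14.9 to 33.0 CPM) and 10 of 10 meninges markers (median 0.86, 44.4 to 228 CPM against 50.1 to 136 CPM). Dopamine neuron markers were higher in 10 of 10 (median 1.22, 325 to 5723 CPM against 249 to 5411 CPM), endothelial markers in 12 of 13 and erythroid genes in 5 of 5, while the 5 hypothalamus and mammillary body markers all had lower values (median -3.94, 4.5 to 13.7 CPM against 7.14 to 347 CPM). None of these passed. The 1 hindbrain marker that could be tested, Slc6a5, was called higher (5.16), at 56.8 CPM in replicate 4 and 14.4 CPM in replicate 5 against at most 1.64 CPM in the other 8 C57 females. The part of any of these in the class II values was not tested.

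In C57 males the 3 tested classical class II genes had lower values after RCF (median log2 fold change -1.03, range -1.15 to -0.67), and none passed. In C57 females the same genes had higher values (median 2.21, range 0.95 to 2.52). Whether the RCF effect on these genes differed between the sexes was not tested. H2-Ab1 had 2, 19, 155, 4 and 52 reads in control males and 44, 3, 11, 15 and 36 in RCF males, and the groups overlapped. Control replicate 3 was the highest in H2-Ab1, H2-Aa (145 reads) and H2-Eb1 (161 reads), and it also had 15.9 CPM of Cd74 and 9.39 CPM of Mrc1, a border macrophage marker, both the highest of all 40 libraries. The smallest p-values in C57 males belonged to H2-Q2 (0.93, SE 0.3918, edgeR adjusted p = 0.67), H2-Q7 (0.79, adjusted p = 0.672) and H2-DMa (-0.36, adjusted p = 0.7). In C57 females the next after H2-Ab1 and H2-Aa was H2-Q2 (-0.97, SE 0.3896, edgeR adjusted p = 0.305), so the 2 sexes had values of opposite sign for it. H2-Q2 was at 5.43, 5.18, 4.22, 3.53 and 1.35 CPM in control males and 6.40, 2.38, 6.12, 14.0 and 8.65 CPM in RCF males. In females it was at 12.4, 9.68, 4.43, 7.81 and 13.6 CPM in controls and 6.56, 7.24, 5.57, 1.04 and 4.05 CPM after RCF. The groups overlapped in both sexes, and whether the RCF effect on this gene differed between the sexes was not tested.

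In DBA mice the smallest p-values were those of H2-M5 (-0.63), H2-T22 (-0.34) and H2-T10 (-0.56) in males, with edgeR adjusted p of 0.763, 0.779 and 0.806. In DBA females they were those of H2-M3 (0.46), H2-M6-ps (1.36) and H2-M5 (0.66), with edgeR adjusted p of 0.43, 0.432 and 0.458. Without DBA control female replicate 3, one of the 4 high in Slc17a7, the value of H2-M6-ps was 2.18. H2-Ab1 had 41, 47, 26, 60 and 48 reads in DBA control females and 21, 51, 42, 42 and 32 after RCF, with full overlap. For the mean RCF effect the smallest were H2-Aa (0.71), H2-M3 (0.19) and H2-DMb1 (-0.52), with edgeR adjusted p of 0.712, 0.756 and 0.802.

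The difference of the RCF effect between the strains was tested directly, and 0 of 29 H2 genes passed (edgeR; 0.0108% of all genes tested passed). At an unadjusted p under 0.05 the count was 0, against 6% of all genes, and DESeq2 and limma voom called 0. The smallest p-values were those of H2-Bl (-1), H2-Oa (-1.39) and H2-DMb2 (-1.10), with edgeR adjusted p of 0.866, 0.87 and 0.882. Without DBA control male replicate 5 the value of H2-Oa was -0.29. The strain difference was compared between the sexes in the same way, with 0 of 29 called (0.038% of all genes tested; 1 at an unadjusted p under 0.05, against 10.1%; 0 by DESeq2 and limma voom). Here H2-DMb1 (-1.86), H2-M5 (-0.55) and H2-K1 (-0.19) came first, with edgeR adjusted p of 0.38, 0.64 and 0.727. By limma voom H2-DMb1 was at -1.20. Between females and males 0 of 29 were called (0.146% of all genes tested, 0.0705% higher and 0.0759% lower; 2 at an unadjusted p under 0.05, against 9.68%; 0 by DESeq2 and limma voom). H2-Q7 (0.41), H2-Q5 (0.71) and H2-Q6 (0.38) came first, with edgeR adjusted p of 0.417, 0.51 and 0.662.

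Within groups, the classical class I genes and some class II genes varied with marker lists from library to library. Deviations from the group means were correlated for 6 genes against 11 marker and interferon lists over 40 libraries, which made 66 relations with 100000 permutations each, two-sided, and 10 had a Benjamini-Hochberg adjusted p under 0.05. H2-K1 went with the endothelial list (r = 0.619, permutation p = 6e-05, adjusted 0.00396; rho = 0.6, p = 0.0002; r = 0.616 without the 2 libraries farthest from the median). Within the strains r was 0.744 in C57 and 0.525 in DBA. H2-D1 went with the same list (r = 0.509, permutation p = 0.00084, adjusted 0.0161; rho = 0.551, p = 0.00064; r = 0.488 without the 2 farthest; 0.51 in C57 and 0.537 in DBA). H2-Eb1 went with the meninges list (r = 0.685, permutation p = 0.00014, adjusted 0.00462; rho = 0.553, p = 0.00181; r = 0.626 without the 2 farthest), with 0.819 in C57 and 0.518 in DBA. H2-Aa went with the meninges list too (r = 0.616, permutation p = 0.00122, adjusted 0.0161; rho = 0.6, p = 0.001; r = 0.541 without the 2 farthest), but this rested on C57, where r was 0.77 against 0.173 in DBA. The other 6 joined H2-K1 and H2-D1 to the interferon list (r = 0.492 and 0.414), H2-K1 to the meninges list (0.444), H2-Eb1 to the border macrophage list (0.569) and Cd74 to the meninges and border macrophage lists (0.637 and 0.574). H2-K1 with the meninges list was at r = 0.673 in C57 and 0.209 in DBA, and H2-D1 with the interferon list at 0.198 and 0.489. By rho neither of these 2 relations passed (permutation adjusted p = 0.0581 and 0.0651). No relation of H2-Ab1 passed, and differences between these coefficients were not tested.

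Among the genes themselves, the deviations of H2-K1 went with those of H2-D1 (r = 0.788), H2-Q4 (0.808) and B2m (0.674). Those of H2-Aa went with H2-Ab1 (0.61) and Cd74 (0.623), and those of H2-Ab1 with Cd74 (0.57, or 0.681 without C57 RCF female replicate 4). These coefficients are descriptions over 40 libraries that share depth and tissue content, and no p is given.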

How the data were processed

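Raw read counts per gene were deposited as 1 table of 40 libraries and 55471 genes, and the authors made them from single-end reads of 75 nt (Universal Plus mRNA-Seq libraries sequenced on a NextSeq 500, per the labels' protocols). The submitters' processing notes name bcl2fastq 2.20, cutadapt 1.11, FastQC and the build GRCm38 (mm10). Which aligner and counting program were used, with what strand rule and what handling of reads matching several genes, is not given in these sources. Library totals of 16913124 to 28179071 reads set the precision, and intervals on few reads cover counting error only.

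Groups were taken from the labels. Counts were filtered (filterByExpr over the 8 groups), scaled by TMM (factors 0.905 to 1.09) and fitted with 1 mean per group by edgeR 4.0.16 (robust quasi-likelihood fit, 32 residual degrees of freedom, R 4.3.3). Contrasts were adjusted by Benjamini-Hochberg over all 18441 genes tested, with a threshold of 0.05. The strain contrast is the mean over sex and treatment. CPM values use the TMM scale. The fit was tested on simulated data. Alternatives were DESeq2 1.42.0, limma 3.58.1 (voom), other scalings, no filter, the compared libraries alone, summed families, a replicate term and each library left out. Permutations used scipy 1.17.1. Families were summed to describe reads that near-identical genes may share. Shared windows and overlaps came from the reference transcripts and annotation.

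The members, gene lists and tests were chosen with earlier results of these data known. Every member past the threshold was named, with library values for the 12 of smallest p in the strain contrast and for H2-K1, H2-D1, H2-Aa, H2-Ab1, H2-Eb1 and H2-Ea-ps. In the RCF, interaction and sex contrasts the 3 members of smallest p were named where none passed. Of the antigen presentation list, up to 6 genes in each direction, B2m, Cd74 and Tap1 were named. Libraries of a group all differed by more than counting noise (80 pairs, chi-square divided by its degrees of freedom from 5.51 to 141).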

Additional observations from a re-analysis of the deposited data

Results flagged for a closer look

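Among 17 H2 genes in 8 groups of 5 libraries, 136 sets in all, 10 had 1 library far from the other 4 (gap over range above 0.71, which chance gives in about 1 in 20 sets). No cause was tested for any of them. H2-Eb1 was at 6.41 CPM in C57 control male replicate 3 against 0.485 to 1.64 CPM in the others, in the library that also led in H2-Aa, Cd74 and Mrc1. H2-K1 was at 40.9 CPM in C57 RCF female replicate 3, against 25.2 to 28.2 CPM. H2-Q10 was at 6.33 CPM in DBA control male replicate 4, against 0.773 to 2.03 CPM. H2-DMa was at 15.9 CPM in DBA control female replicate 3, one of the 4 libraries high in Slc17a7, against 9.06 to 9.68 CPM. H2-Q2 was at 1.63 CPM in DBA RCF female replicate 4, against 0.777 to 0.961 CPM.

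The other 5 rest on few reads. H2-Ea-ps was at 0.611 CPM in C57 control male replicate 5, at 0.046 CPM (1 read) in C57 control female replicate 5, with 0 in the other libraries of both groups, and at 0.297 CPM in DBA control male replicate 5, against 0 to 0.0429 CPM. H2-T3 was at 0.0421 CPM (1 read) in C57 RCF male replicate 1 and at 0.046 CPM (1 read) in C57 control female replicate 5, with 0 in the others.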

How the results depend on the processing

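The number of H2 genes called between the strains was 20 and ranged from 20 to 23 over 7 other settings and from 20 to 22 over 40 fits that each left out 1 library. In controls it was 16, with 11 to 17 over 8 settings and 13 to 16 with 1 library left out, and in RCF mice 14, with 14 to 18 and 14 to 17. Removing the 4 libraries high in Slc17a7, a setting chosen after seeing the data, gave 23, 17 and 17. Of the 20 called genes, 17 kept their call and sign under all 47 settings, and H2-Aa (limma voom), H2-Q7 (no filter) and H2-Ke6 (no filter and 4 libraries) lost it in some. The H2 count was 0 in every RCF, sex and interaction contrast under all settings run, except that DESeq2 called 1 in C57 females. The cause was not tested. Over all genes, the counts in those contrasts moved by more than 1.5 times: 0 to 85 against 1 in C57 females, 0 to 7 against 2 in C57 males, 1 to 43 against 3 in DBA females, 0 to 18 against 3 in DBA males, 3 to 11 against 4 for their mean, 1 to 3 against 2 between strains, 3 to 68 against 7 for strain by sex and 17 to 65 against 27 between the sexes.

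Values near 0 changed sign. The strain difference of H2-D1 was -0.003 by limma voom, with -0.0264 to 0.0499 when 1 library was left out. That of H2-K1 was 0.0084 by total counts, with -0.0459 to 0.0121. In controls H2-D1 was -0.0134 by limma voom, with -0.0412 to 0.1113. In RCF mice H2-D1 was 0.0339 by total counts, 0.0074 by limma voom and 0.0241 without the 4 libraries (-0.0565 to 0.0282), H2-K1 ranged from -0.003 to 0.099, and H2-Ab1 was 0.2263 by limma voom and 0.0452 without the 4 libraries (-0.4508 to 0.049). The cause was not tested.

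Replicate numbers did not pair the libraries: same-numbered libraries correlated at -0.274 to 0.239, 5 of 40 pairs were over 0.1, and 8 libraries went best with their own number. With the replicate block 20 H2 genes were called between the strains, 14 in controls, 14 in RCF mice and 0 in the other contrasts. Depth limits the genes under about 1 CPM, where a few reads decide a value.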
